A study of Mus musculus with 6 samples.

Results

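The genes described here encode 10 enzymes that make serine, asparagine and the proline precursor or that pass carbon units from serine through folate. They were chosen by symbol, with earlier results of these data known, as Phgdh, Psat1, Psph, Shmt2, Shmt1, Mthfd2, Mthfd1l, Mthfd1, Asns and Aldh18a1. All 10 were found among the 57010 Ensembl gene IDs of the deposited table. The table covers 3 mRNA libraries from Ba/F3 cells with the TPR-FGFR1 fusion and 3 from Ba/F3 cells with an empty vector. Ba/F3, written Baf3 in the labels, is a mouse haematopoietic line that normally needs interleukin-3 and is widely used to study oncogenic kinases. TPR-FGFR1 joins the coiled-coil part of a nuclear pore protein to the kinase of FGF receptor 1. The fusion cells (genotype TPR-FGFR1 Overexpression) were made with lentivirus and kept in puromycin at 5 µg/ml for 6 days, while the empty vector cells are labelled WT and no source used here gives their selection. Whether the lines were pools or clones, whether interleukin-3 was present, and whether the replicates were separate cultures are not stated, so the p-values reflect the scatter of these 6 libraries alone, part or all of which may be technical.

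Cells make serine from the glycolytic intermediate 3-phosphoglycerate through PHGDH, PSAT1 and PSPH in turn. The serine hydroxymethyltransferases then split serine into glycine and a carbon unit on tetrahydrofolate, SHMT2 in mitochondria and SHMT1 in the cytosol. In mitochondria MTHFD2 oxidises that unit and MTHFD1L releases it as formate, which cytosolic MTHFD1 loads back onto folate for purine, thymidylate and methionine synthesis. ASNS makes asparagine from aspartate and glutamine, and ALDH18A1 starts proline and ornithine synthesis from glutamate. In proliferating mammalian cells many of these genes are induced by the transcription factor ATF4 when amino acids run short.

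The deposited values are TPM, transcript levels scaled by length and by library total, so levels of different genes can be set side by side, but the depth of each library is unknown. The targeted gene Fgfr1 stood at 0.58 to 1.26 TPM in the fusion libraries and 0.02 to 0.05 TPM in the empty vector libraries. The species of the fusion's sequence is not stated, and reads from a human sequence could count only in part for the mouse gene, so these values are not a measure of the fusion transcript's level. Of 10 B lymphocyte markers, the labelled cell type, 9 averaged under 1 TPM, and Rag1 was among those listed at 0 in every library. Their summed level was 4.78 to 7.83 TPM with the fusion and 6.47 to 7.3 TPM with the empty vector, nearly all from Cd79b. Summed levels in fusion against empty vector libraries were 30.4 to 37.4 against 34.4 to 38.7 TPM for 10 myeloid and mast cell markers (3 at 1 TPM or more, Kit and Ctsg at 0) and 184 to 390 against 227 to 306 TPM for 5 erythroid markers (all 5 at 1 TPM or more). None of 5 T lymphocyte and 6 fibroblast and epithelial markers averaged 1 TPM (0 of each). The fusion libraries differed among themselves by GC content. The fifth of tested genes richest in GC was set against the poorest, as deviations from the mean of the empty vector libraries. The median was −0.69 and −0.86 on the log2 scale in TPR-FGFR1 replicates 1 and 2. It was −0.07 in replicate 3, near the −0.05 to 0.05 of the empty vector libraries. Counts of calls are therefore also given after removal of each library's trend over GC content and transcript length, with corrected differences for some genes. Counts without replicate 3 are given too, but that omission leaves only the fusion libraries with the GC shift.

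Among the 10 genes, fusion cells held less mRNA of the mitochondrial folate enzyme genes Shmt2, Mthfd2 and Mthfd1l. They also held less of Phgdh and Aldh18a1, the entry steps of serine and proline synthesis. The other genes of the 10 were not called. Shmt2 stood at 0.393 times, Mthfd1l at 0.56 times, Mthfd2 at 0.638 times, Phgdh at 0.675 times and Aldh18a1 at 0.735 times the empty vector mean. Asns, Psat1, Shmt1 and Mthfd1, 4 of the 5 genes that were not called, had group means within 10% of each other. In limma's test on log2(TPM + 1) over the 12862 genes that averaged 1 TPM or more, with a call at a Benjamini-Hochberg adjusted p under 0.05, 5 of the 10 genes were called lower, against 10% of all tested genes, and 0 were called higher, against 10.2%. Calls in either direction made up 20.2% of all tested genes. Because the 10 genes were chosen with earlier results of these data known, their share of calls is no independent test. All 10 genes averaged at least 1 TPM in both groups. For 5 genes every fusion library lay below every empty vector library, against 20.8% of tested genes, and for 1 gene, Psph, every fusion library lay above, against 22.6% of tested genes. The median log2 difference of the 10 genes was −0.28, against 0.02 over all tested genes. After removal of the GC and length trends it was −0.12, against 0.01. In bulk RNA, fewer cells that express a gene and less RNA per cell cannot be told apart.

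**Figure D1:**
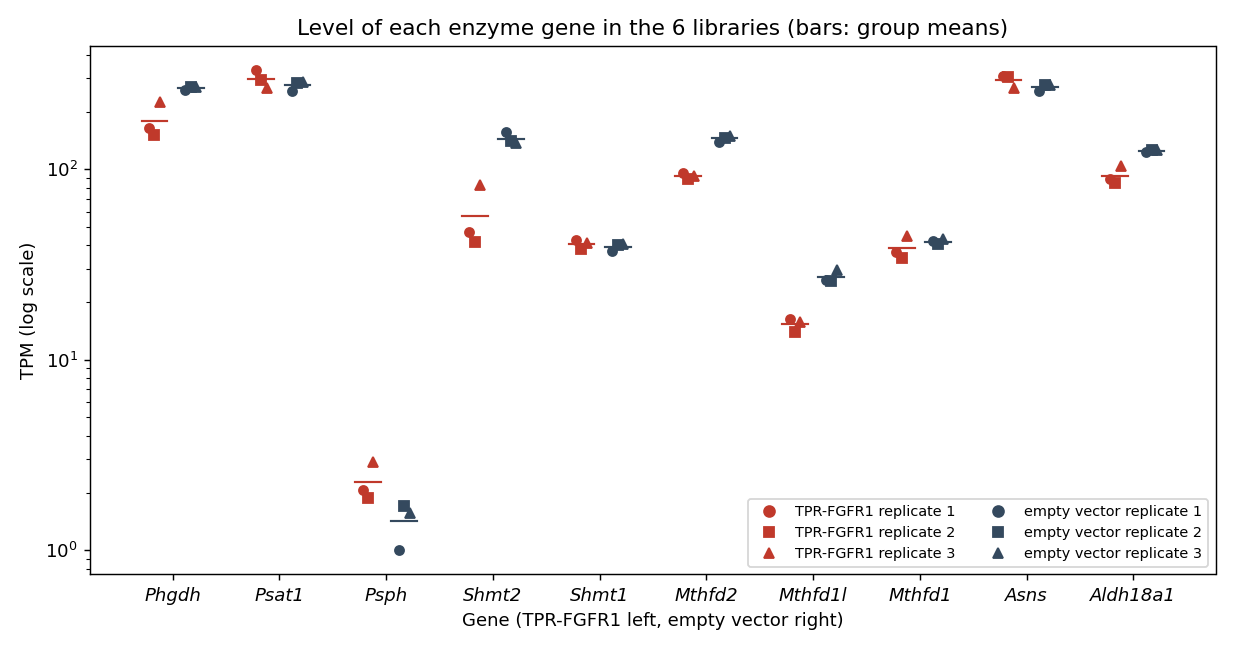
TPM of the 10 enzyme genes on a log axis, with the 3 TPR-FGFR1 libraries (red) left of the 3 empty vector libraries (dark blue), the marker shape giving the replicate number and the bar the group mean. The groups stand apart for Phgdh, Shmt2, Mthfd2, Mthfd1l and Aldh18a1, and TPR-FGFR1 replicate 3 lies nearest to the empty vector libraries for Shmt2 and Phgdh.

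With each library's GC and length trend removed, Phgdh, Shmt2, Mthfd2, Mthfd1l and Aldh18a1 again made up 5 calls lower, against 15.4% of tested genes, and 0 were called higher, against 16.4%. Without TPR-FGFR1 replicate 3, 6 were called lower, against 23.4% of tested genes, and 1 was called higher, against 26.3%. Those 2 further calls were Mthfd1 (log2 difference −0.23, adjusted p = 0.0221) and Asns (0.18, adjusted p = 0.0325). With the GC and length correction and replicate 3 left out, neither was called. Mthfd1 was then at −0.05 (adjusted p = 0.436) and Asns at 0.06 (adjusted p = 0.264). With TPR-FGFR1 replicate 1 or any 1 of the empty vector libraries left out there were 2 calls lower, Mthfd2 and Mthfd1l, against 1.33% of tested genes without TPR-FGFR1 replicate 1 and 1.65%, 0.848% and 1.04% without empty vector replicates 1, 2 and 3, and with TPR-FGFR1 replicate 2 left out there were 3, with Shmt2 added, against 3.45%.

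The windows below run from 250 bases before to 50 after the start annotated by RefSeq on GRCm38.p6. They are shown for Shmt2, Mthfd2 and Aldh18a1, which were called lower, and for Asns, which was not. Of these, Mthfd2, Asns and Aldh18a1 hold a searched element. All 10 genes have a window in the table, Psat1 having more than 1, which makes 11 windows. They were searched on both strands for the core of the element that ATF4 binds with C/EBP partners (TGATGNAA), the E-box bound by MYC, MAX and USF factors (CACGTG) and the CCAAT box bound by NF-Y (CCAAT). In the 4 windows shown no 2 matches overlap. The windows lie at chr10:127522395-127522694 for Shmt2, chr6:83317555-83317854 for Mthfd2, chr6:7693160-7693459 for Asns and chr19:40588414-40588713 for Aldh18a1, all on the minus strand. They are written 5′ to 3′ along the gene with matches in capitals.
Shmt2: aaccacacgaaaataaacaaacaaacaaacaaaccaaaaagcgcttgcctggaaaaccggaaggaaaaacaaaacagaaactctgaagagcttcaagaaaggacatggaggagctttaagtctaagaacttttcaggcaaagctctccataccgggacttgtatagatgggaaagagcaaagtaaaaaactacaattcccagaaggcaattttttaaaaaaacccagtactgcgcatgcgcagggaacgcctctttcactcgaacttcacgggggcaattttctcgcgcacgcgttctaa
Mthfd2: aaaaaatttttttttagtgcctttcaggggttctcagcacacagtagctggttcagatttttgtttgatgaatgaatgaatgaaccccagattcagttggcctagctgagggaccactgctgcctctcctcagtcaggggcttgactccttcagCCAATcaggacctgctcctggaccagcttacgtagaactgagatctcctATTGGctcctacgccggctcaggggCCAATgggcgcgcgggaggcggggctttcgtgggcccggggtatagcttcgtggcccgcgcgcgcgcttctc
Asns: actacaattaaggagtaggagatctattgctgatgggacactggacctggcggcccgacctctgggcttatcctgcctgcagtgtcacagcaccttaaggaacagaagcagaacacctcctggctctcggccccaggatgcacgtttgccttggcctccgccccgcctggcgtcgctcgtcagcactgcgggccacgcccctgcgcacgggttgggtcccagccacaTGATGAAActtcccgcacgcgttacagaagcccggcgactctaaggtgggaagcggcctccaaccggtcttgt
Aldh18a1: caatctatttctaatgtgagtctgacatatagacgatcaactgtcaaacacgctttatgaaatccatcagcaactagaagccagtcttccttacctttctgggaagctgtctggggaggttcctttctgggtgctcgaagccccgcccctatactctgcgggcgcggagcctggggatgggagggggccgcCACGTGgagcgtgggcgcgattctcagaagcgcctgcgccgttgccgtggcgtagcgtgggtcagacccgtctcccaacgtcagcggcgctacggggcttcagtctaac

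The ATF4 element core was found in 1 of the 11 windows, that of Asns, with its first base 23 before the start, and in 3.97% of all 32851 windows of the table. The E-box was found in that of Aldh18a1 alone among these genes and in 7.15% of all windows. A CCAAT box was found in 6 of the 11 windows, those of Phgdh, Psph, Mthfd2, Shmt1, Mthfd1 and one of Psat1, and in 37.41% of all windows. The windows of Shmt2 and Mthfd1l, the genes with the largest falls among the 10, held none of the 3 letter strings. Genes with and without a CCAAT box occur both among those called lower and among those not called.

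Of the serine synthesis enzymes, the gene of the entry enzyme fell while the others were not called. Phgdh (ENSMUSG00000053398), which encodes the dehydrogenase that commits 3-phosphoglycerate to serine, had 164.31, 151.64 and 224.48 TPM in fusion replicates 1, 2 and 3, against 261.19, 270.18 and 269.81 TPM in the empty vector replicates. The groups did not overlap, and fusion replicate 3 lay closest to the empty vector level. The Phgdh log2 difference was −0.59 (SE 0.145, limma adjusted p = 0.035), and −0.25 (SE 0.0495, adjusted p = 0.0128) after the correction for GC content (57.2% in its longest transcript) and length. Its call was lost when genes of any level above 0 were tested (adjusted p = 0.0887), without TPR-FGFR1 replicate 1 (adjusted p = 0.123) or 2 (0.0932) and without empty vector replicate 1 (0.0993), 2 (0.109) or 3 (0.105), while without TPR-FGFR1 replicate 3 the log2 difference was −0.75 (0.000725). Its level is uncertain in another way, since 74.1% of the 31-base words of its longest transcript also occur in transcripts of 26 other annotated genes. None of those other genes exceeded 3.49 TPM in any library, but how the authors placed shared reads is not stated.

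Psat1 (ENSMUSG00000024640), the aminotransferase gene of the middle step, had 332.53, 295.33 and 267.96 TPM in the fusion libraries and 257.32, 282.76 and 288.92 TPM in the empty vector libraries. The ranges overlapped, with a log2 difference of 0.11 (95% interval −0.13 to 0.35, adjusted p = 0.457). Psph (ENSMUSG00000029446), the phosphatase gene that completes the route, had 2.06, 1.89 and 2.92 TPM in the fusion libraries and 1.0, 1.71 and 1.56 TPM in the empty vector libraries. It was the only one of the 10 genes with every fusion library above every empty vector library, but it did not pass the test (log2 difference 0.44, 95% interval −0.01 to 0.89, adjusted p = 0.136). Psph was also far less abundant than its pathway partners, with only 9.42% of tested genes below it, and 7.9% of its 31-base words are shared, on either strand, with Cct6a, a chaperonin gene that reached 174.55 TPM. In all, 8.5% of its words occur in 2741 other genes, the most abundant of which reached 859.23 TPM. The summed level of the 3 serine synthesis genes was 481 ± 27.9 TPM in fusion cells and 545 ± 22.1 TPM in empty vector cells (SD, n = 3 each).

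The mitochondrial serine hydroxymethyltransferase gene fell most among the 10 genes and its cytosolic counterpart was not called. Shmt2 (ENSMUSG00000025403) had 46.79, 41.52 and 82.72 TPM in fusion replicates 1, 2 and 3, against 157.48, 141.23 and 136.75 TPM in the empty vector replicates. The groups did not overlap, although fusion replicate 3 was well above the other fusion libraries. The Shmt2 log2 difference was −1.40 (SE 0.242, limma adjusted p = 0.0142), and −1.05 (SE 0.136, adjusted p = 0.00359) after the correction for GC content (57.4%) and length. By library, it was −1.61, −1.78 and −0.80 relative to the empty vector mean, and −1.18, −1.23 and −0.73 after the correction. The call was lost without TPR-FGFR1 replicate 1 (adjusted p = 0.0637) and without empty vector replicate 1 (0.0629), 2 (0.0586) or 3 (0.0564), with log2 differences of −1.69 to −1.21 over the 6 omissions.

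Shmt1 (ENSMUSG00000020534) had 42.52, 38.2 and 40.95 TPM in the fusion libraries and 37.05, 40.16 and 40.57 TPM in the empty vector libraries. These ranges overlapped, with fusion replicates 1 and 3 above every empty vector library and replicate 2 within their range, and the log2 difference was 0.05 (95% interval −0.14 to 0.23, adjusted p = 0.695). Of its 31-base words, 5.4% are shared with Smcr8, so reads there could count for either gene. In all, 6.1% of its words occur in 50 other genes, the most abundant of which reached 493.32 TPM. In the empty vector libraries Shmt2 was thus well above Shmt1, whereas in fusion replicates 1 and 2 both genes stood near 40 TPM.

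The mitochondrial genes of the next folate steps fell by similar amounts in all 3 fusion libraries. Mthfd2 (ENSMUSG00000005667), the mitochondrial dehydrogenase and cyclohydrolase gene, had 96.19, 89.47 and 92.54 TPM with the fusion, against 139.19, 146.71 and 150.47 TPM with the empty vector. Every fusion library lay below every empty vector library by a wide margin relative to the spread within groups. The Mthfd2 log2 difference was −0.64 (SE 0.071, limma adjusted p = 0.00651), with −0.59, −0.69 and −0.65 in the single fusion libraries. Mthfd1l (ENSMUSG00000040675), the mitochondrial formyl-tetrahydrofolate synthetase gene, had 16.31, 13.93 and 15.72 TPM with the fusion, against 26.29, 26.04 and 29.77 TPM with the empty vector. Again no values overlapped, and the Mthfd1l log2 difference was −0.80 (SE 0.0958, adjusted p = 0.00746), with −0.71, −0.92 and −0.76 in the single libraries. Both calls were kept in all 20 alternative settings, with log2 differences of −0.67 to −0.61 for Mthfd2 and −0.84 to −0.67 for Mthfd1l. After the correction for GC content (49.6% and 51.7%) and length they were −0.66 and −0.72.

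Mthfd1 (ENSMUSG00000021048), whose cytosolic product carries the dehydrogenase, cyclohydrolase and synthetase activities in one chain, had 36.76, 34.29 and 44.73 TPM in the fusion libraries and 41.9, 40.31 and 43.13 TPM in the empty vector libraries. Fusion replicates 1 and 2 lay below the empty vector range and replicate 3 above it. The log2 difference was −0.12 (95% interval −0.38 to 0.14, adjusted p = 0.441), and 0.01 after the correction for GC content and length. Summed, the 3 mitochondrial genes Shmt2, Mthfd2 and Mthfd1l reached 165 ± 23.6 TPM in fusion cells, against 318 ± 4.57 TPM in empty vector cells. The sum of the 2 cytosolic genes Shmt1 and Mthfd1 was 79.2 ± 6.6 TPM in fusion cells and 81.0 ± 2.43 TPM in empty vector cells (SD, n = 3 each).

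**Figure D2:**
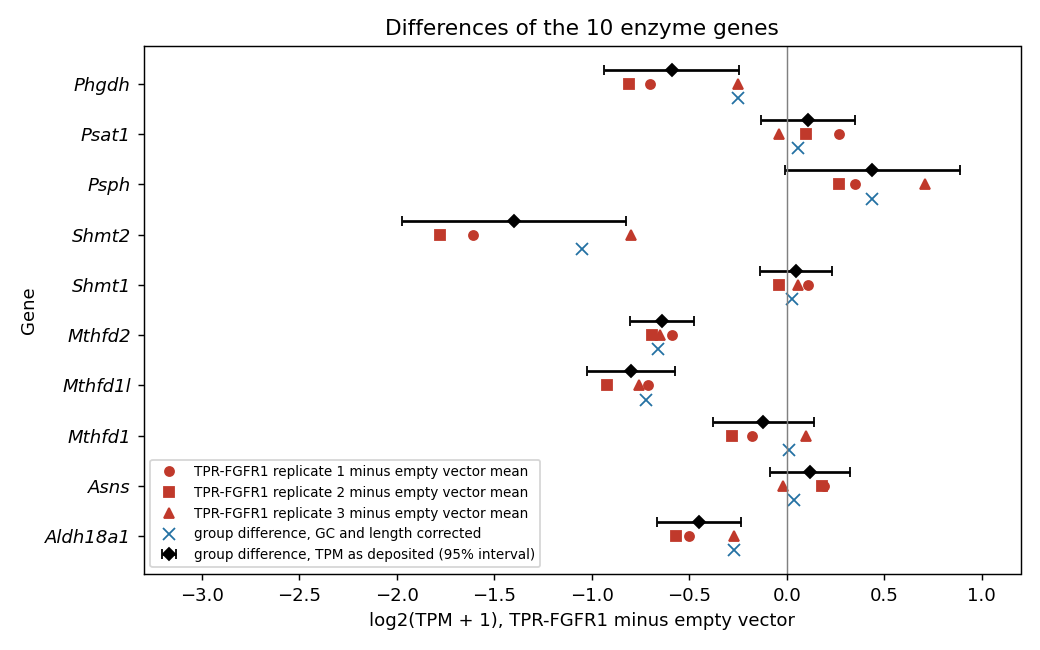
Difference in log2(TPM + 1), TPR-FGFR1 minus empty vector, for each enzyme gene, with the limma estimate and its 95% interval (black), each fusion library against the empty vector mean (red, shape by replicate number) and the estimate after correction for GC content and length (blue cross). Mthfd2 and Mthfd1l differ alike in all 3 fusion libraries, whereas replicate 3 is the least changed for Shmt2, Phgdh and Aldh18a1.

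Ratios of mitochondrial to cytosolic enzyme mRNA within each library, which do not depend on the library's total, were lower in every fusion library. Shmt2/Shmt1 was 1.1, 1.09 and 2.02 in fusion replicates 1, 2 and 3, against 4.25, 3.52 and 3.37 in the empty vector replicates. Mthfd2/Mthfd1 was 2.62, 2.61 and 2.07 in the fusion libraries, against 3.32, 3.64 and 3.49. Mthfd1l/Mthfd1 was 0.444, 0.406 and 0.351 in the fusion libraries, against 0.627, 0.646 and 0.69. The log2 differences were −1.46, −0.53 and −0.71 in that order. Each ratio had p = 0.1 in an exact two-sided permutation of the libraries, and 0.1 when adjusted over the 3 ratios. No smaller p is possible with 3 libraries a group, so this design cannot pass a threshold of 0.05. The 2 ratios with Mthfd1 share a denominator. With the GC and length trends removed the log2 differences were −1.02, −0.68 and −0.77.

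**Figure D3:**
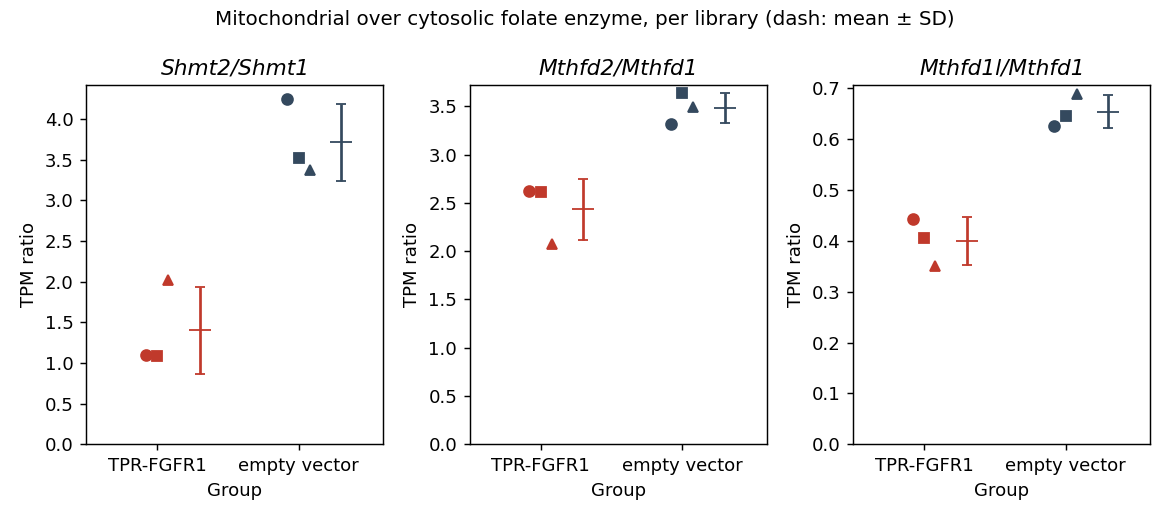
TPM ratio of a mitochondrial to a cytosolic folate enzyme gene in each library, TPR-FGFR1 (red) left of empty vector (dark blue), with the mean and SD of 3 libraries beside the points and axes starting at 0. No fusion library reaches the empty vector range in any of the 3 ratios, and fusion replicate 3 has the highest Shmt2/Shmt1 (2.02) but the lowest ratios to Mthfd1.

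Asparagine synthetase and the first proline enzyme differed in their behaviour. Asns (ENSMUSG00000029752), a classic ATF4 target, had 308.67, 307.08 and 266.76 TPM in the fusion libraries and 256.44, 278.16 and 278.53 TPM in the empty vector libraries. Fusion replicates 1 and 2 exceeded every empty vector library and replicate 3 did not, and the log2 difference was 0.12 (95% interval −0.09 to 0.32, adjusted p = 0.36). Without TPR-FGFR1 replicate 3 it was 0.18 and passed the test (adjusted p = 0.0325). With the GC and length correction added to that omission it was 0.06 and did not pass (adjusted p = 0.264). Aldh18a1 (ENSMUSG00000025007), which encodes the mitochondrial synthase of pyrroline-5-carboxylate, had 88.67, 84.29 and 103.64 TPM with the fusion, against 123.28, 127.07 and 125.94 TPM with the empty vector. The groups did not overlap, with fusion replicate 3 again nearest. The Aldh18a1 log2 difference was −0.45 (SE 0.0924, limma adjusted p = 0.0226) and −0.27 (SE 0.0357, adjusted p = 0.00387) after the correction for GC content (53.7%) and length. Without TPR-FGFR1 replicate 1 (adjusted p = 0.0918) or 2 (0.0692), or empty vector replicate 1 (0.0771), 2 (0.0918) or 3 (0.0826), the call was lost.

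The order of levels changed with these differences. In fusion cells Psat1 (299 ± 32.4 TPM) and Asns (294 ± 23.8 TPM) were the most abundant and did not differ beyond their spread, followed by Phgdh (180 ± 38.9 TPM), Mthfd2 (92.7 ± 3.36 TPM) and Aldh18a1 (92.2 ± 10.1 TPM), the last 2 within their spread. Shmt2 (57.0 ± 22.4 TPM) came next in fusion cells, within its spread of Shmt1 (40.6 ± 2.19 TPM) and Mthfd1 (38.6 ± 5.46 TPM), and Mthfd1l (15.3 ± 1.24 TPM) and Psph (2.29 ± 0.552 TPM) came last. In empty vector cells Psat1 (276 ± 16.8 TPM), Asns (271 ± 12.6 TPM) and Phgdh (267 ± 5.09 TPM) stood level, as did Shmt2 (145 ± 10.9 TPM) and Mthfd2 (145 ± 5.74 TPM). They were followed by Aldh18a1 (125 ± 1.95 TPM), Mthfd1 (41.8 ± 1.41 TPM), Shmt1 (39.3 ± 1.92 TPM), Mthfd1l (27.4 ± 2.09 TPM) and Psph (1.42 ± 0.374 TPM), all SD with n = 3. So, in TPM as deposited, Phgdh left the top group in fusion cells, although its log2 difference shrank from −0.59 to −0.25 after the GC and length correction. Shmt2 came down beside the cytosolic enzymes in fusion replicates 1 and 2 only. In fusion replicate 3 Shmt2 stood at 82.72 TPM, against 40.95 TPM for Shmt1 and 44.73 TPM for Mthfd1. Together the 10 genes took 1112 ± 46.9 TPM in fusion cells and 1340 ± 34.4 TPM in empty vector cells.

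Among 20 further folate cycle genes 14 were tested, of which 3 were called higher, against 10.2% of all tested genes, and 1 lower, against 10%, with a median log2 difference of 0.24, against 0.02 over all tested genes. After the GC and length correction 4 were called higher, against 16.4% of tested genes, and 2 lower, against 15.4%, with a median of 0.1. Aldh1l2, the mitochondrial formyl-tetrahydrofolate dehydrogenase gene, rose where Shmt2, Mthfd2 and Mthfd1l fell. It had 2.17, 2.19 and 1.65 TPM with the fusion, against 0.39, 0.74 and 0.62 TPM with the empty vector. Its log2 difference was 0.92 (SE 0.172, limma adjusted p = 0.0169), but it passed the 1 TPM filter only through the fusion libraries, and its call was lost in 6 of 19 settings. Mtr, the methionine synthase gene, rose to 23.8 ± 2.77 TPM in fusion cells, against 17.7 ± 0.74 TPM in empty vector cells (SD, n = 3 each). Tyms, the thymidylate synthase gene, was the only one called lower, with 38.24, 38.71 and 28.03 TPM with the fusion, against 52.8, 61.12 and 63.43 TPM with the empty vector. Its log2 difference was −0.75 (SE 0.143, adjusted p = 0.0179). The folate importer gene Slc19a1 averaged 5.03 ± 1.77 and 7.17 ± 0.794 TPM in fusion and empty vector cells (adjusted p = 0.139). Mthfd2l, a relative of Mthfd2, reached at most 0.09 TPM in any library. With TPR-FGFR1 replicate 1 or any 1 empty vector library left out, the folate list had 0 calls in either direction. Of the 12815 to 12882 genes then tested, 111 to 193 were called higher and 0.848% to 1.65% lower. Without TPR-FGFR1 replicate 2 the list had 0 higher and 1 lower, against 426 of 12829 tested genes higher and 3.45% lower. Without TPR-FGFR1 replicate 3 it had 7 higher and 5 lower, against 26.3% and 23.4% of tested genes.

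Of 14 serine and glycine genes 10 were tested, with 3 called higher, against 10.2% of all tested genes, 0 lower, against 10%, and a median log2 difference of 0.0. After the GC and length correction 3 were called higher and 3 lower (16.4% and 15.4% of tested genes), with a median of −0.04. Median-ratio scaling gave 2 lower, against 1485 of 12862 tested genes. Amt, which encodes the aminomethyltransferase of the mitochondrial glycine cleavage system, had 20.01, 20.54 and 19.82 TPM with the fusion, against 9.75, 10.75 and 7.91 TPM with the empty vector. The groups were far apart, and the Amt log2 difference of 1.02 (SE 0.115, limma adjusted p = 0.00664) stayed called in all 20 settings. Gldc, the decarboxylase gene of the same system, averaged only 0.203 ± 0.114 TPM in fusion cells and 0.177 ± 0.0503 TPM in empty vector cells and was not tested. Sptlc2, a subunit gene of the serine palmitoyltransferase that starts sphingolipid synthesis, rose to 61.4 ± 8.07 TPM in fusion cells, against 38.2 ± 0.82 TPM. Srr, the serine racemase gene, rose to 29.9 ± 2.7 TPM, against 22.3 ± 1.41 TPM in empty vector cells (SD, n = 3 each). Sfxn1, which encodes a mitochondrial serine importer, averaged 66.7 ± 4.5 and 80.0 ± 5.52 TPM in fusion and empty vector cells and did not pass the test (adjusted p = 0.0783), but was called lower after the GC and length correction (log2 difference −0.41, adjusted p = 0.00343). The other genes called lower with that correction, named here after their values were seen, were Sptlc1 (−0.28, adjusted p = 0.00785), another subunit gene of serine palmitoyltransferase, and Dld (−0.14, adjusted p = 0.037), a dehydrogenase gene of the glycine cleavage system. The list had 1 higher call without TPR-FGFR1 replicate 1 or any 1 empty vector library, against 111 to 193 of the 12815 to 12882 genes then tested. Without TPR-FGFR1 replicate 2 it had 2 higher, against 426 of 12829. Without replicate 3 it had 4 higher and 2 lower, against 26.3% and 23.4% of tested genes.

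**Figure D4:**
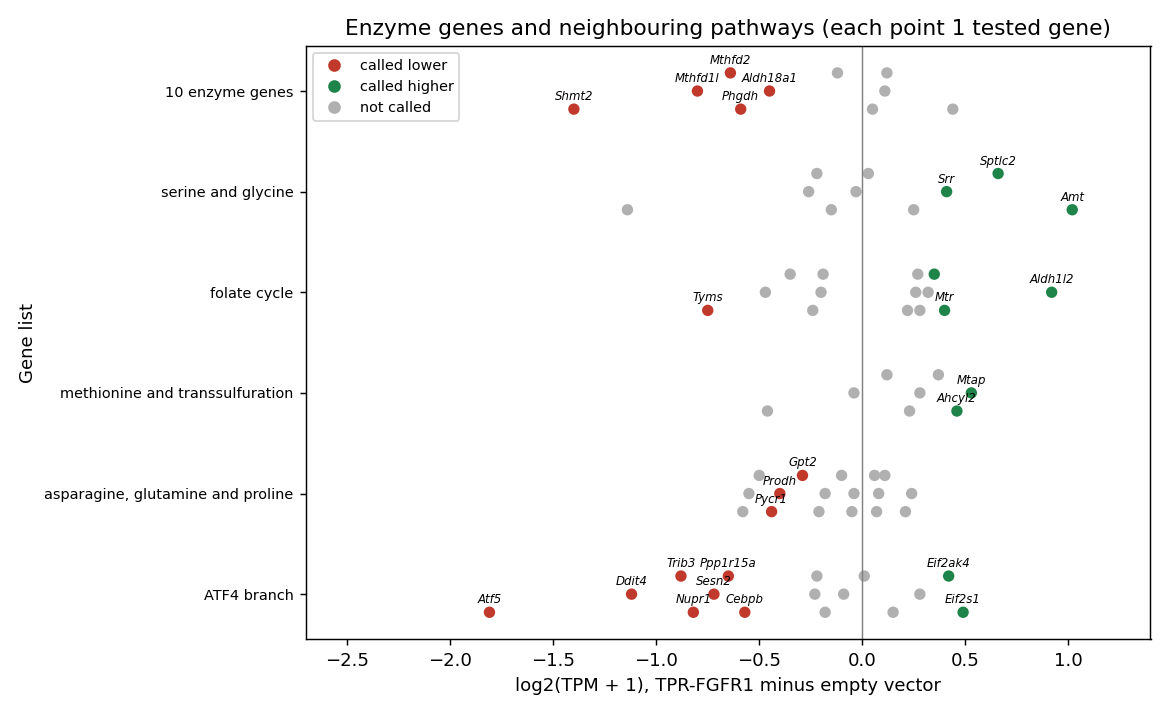
Difference in log2(TPM + 1), TPR-FGFR1 minus empty vector, for the 10 enzyme genes and for the tested genes of 5 neighbouring lists, 1 point per gene (vertical offsets only separate points), coloured by limma call, with names beside most called genes. The 10 enzyme genes have 5 calls lower and 0 higher, where 10% and 10.2% of all tested genes were called. Genes and lists were chosen with earlier results of these data known.

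Of 12 methionine and transsulfuration genes 8 were tested, with 2 called higher, against 10.2% of all tested genes, 0 lower, against 10%, and a median log2 difference of 0.25. After the GC and length correction 4 were called higher and 1 lower (16.4% and 15.4% of tested genes), with a median of 0.2. Mtap, the methylthioadenosine phosphorylase gene of methionine salvage, rose to 198 ± 27.1 TPM in fusion cells, against 135 ± 6.31 TPM, and Ahcyl2, which encodes a relative of adenosylhomocysteinase, rose to 24.6 ± 1.7 TPM, against 17.6 ± 1.74 TPM in empty vector cells (SD, n = 3 each). Of the transsulfuration genes that carry serine into cysteine, Cbs stayed at 0.25 TPM or less in every library, and Cth averaged 3.69 ± 1.26 and 5.34 ± 1.06 TPM in fusion and empty vector cells (adjusted p = 0.178). Neither rise was called without TPR-FGFR1 replicate 1 or 2 or any 1 empty vector library (0 calls in the list). Over all genes then tested, 111 to 426 were called higher and 0.848% to 3.45% lower. Without TPR-FGFR1 replicate 3, 5 rises were called in the list, against 26.3% of tested genes.

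Of 19 asparagine, glutamine and proline genes 17 were tested, with 0 called higher, against 10.2% of all tested genes, 3 lower, against 10%, and a median log2 difference of −0.10. After the GC and length correction 0 were called higher and 2 lower (16.4% and 15.4% of tested genes), with a median of 0.01. Pycr1, the mitochondrial reductase gene that completes proline synthesis after ALDH18A1, fell to 27.8 ± 2.65 TPM in fusion cells, against 38.0 ± 3.34 TPM in empty vector cells, and missed the threshold after the GC and length correction (log2 difference −0.25, adjusted p = 0.0553, against −0.44 and 0.0304 before). Prodh, which encodes the oxidase that breaks proline down, fell to 7.73 ± 1.06 TPM, against 10.4 ± 0.37 TPM, and Gpt2, the mitochondrial alanine aminotransferase gene, fell to 68.6 ± 2.19 TPM, against 84.0 ± 4.58 TPM in empty vector cells (SD, n = 3 each). Genes not called included Got1, the cytosolic aspartate aminotransferase gene (log2 difference 0.06, 95% interval −0.14 to 0.27), and Oat, the ornithine aminotransferase gene (−0.04, −0.20 to 0.12). No gene of the list was called without TPR-FGFR1 replicate 1 or 2 or any 1 empty vector library (0 each). Over all genes then tested, 111 to 426 were called higher and 0.848% to 3.45% lower. Without TPR-FGFR1 replicate 3, 1 rise and 7 falls were called in the list, against 26.3% and 23.4% of tested genes.

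In the ATF4 branch, which links amino acid shortage and other stresses to these enzymes, 16 of 17 genes were tested, with 2 called higher, against 10.2% of all tested genes, 7 lower, against 10%, and a median log2 difference of −0.22. After the GC and length correction 3 were called higher and 7 lower (16.4% and 15.4% of tested genes), with a median of −0.21. Cebpb, which encodes a C/EBP partner of ATF4 and is named here after its values were seen, was called lower (log2 difference −0.57, adjusted p = 0.041) but stood at 0.20 after the correction (adjusted p = 0.582). Cebpg, named likewise, was called lower with the correction (−0.25, adjusted p = 0.00644) but not before it (−0.09, 0.427). Trib3, also named likewise, was called lower before (−0.88, adjusted p = 0.0201) and after the correction (−0.50, 0.0033). Atf4 itself averaged 218 ± 7.73 TPM in fusion cells and 256 ± 9.25 TPM in empty vector cells, with no overlap but an adjusted p of 0.0617, and its log2 difference of −0.23 turned to 0.03 after the correction for GC content and length. Ddit4, an inhibitor gene of mTORC1 signalling, fell to 33.7 ± 4.54 TPM in fusion cells, against 75.0 ± 14.4 TPM. Sesn2, whose product senses leucine upstream of mTORC1, fell to 21.9 ± 3.68 TPM, against 36.4 ± 1.13 TPM in empty vector cells. Nupr1, a stress-induced chromatin protein gene, fell to 132 ± 26.8 TPM, against 231 ± 5.96 TPM, and Ppp1r15a, which encodes the phosphatase subunit that reverses eIF2α phosphorylation, fell to 108 ± 19.1 TPM, against 169 ± 5.69 TPM in empty vector cells. Atf5, an ATF4-related factor gene, had a log2 difference of −1.81 (adjusted p = 0.00651). After the GC and length correction these falls were still called, but most were smaller. The log2 difference went from −1.81 to −1.27 for Atf5, from −1.12 to −0.76 for Ddit4 and from −0.72 to −0.30 for Sesn2. For Ppp1r15a it went from −0.65 to −0.37, and for Nupr1 it stayed at −0.82. Eif2ak4, which encodes GCN2, the kinase that senses uncharged tRNA, rose to 22.6 ± 0.709 TPM, against 16.7 ± 0.481 TPM in empty vector cells (SD, n = 3 each). The other gene called higher was Eif2s1, which encodes eIF2α and is named here after its values were seen. Atf5 and Ddit4 kept their calls in all 20 settings. The list had 2 lower and 0 higher calls without TPR-FGFR1 replicate 1 or any 1 empty vector library. Over all genes then tested, 0.848% to 1.65% were called lower and 111 to 193 genes higher. Without TPR-FGFR1 replicate 2 the list had 4 lower and 0 higher, against 3.45% of tested genes lower and 426 genes higher. Without replicate 3 it had 9 lower and 4 higher, against 23.4% and 26.3% of tested genes.

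The tested genes outside these lists whose log2(TPM + 1) followed the mean of the 10 standardized enzyme genes most closely over the 6 libraries were Cox18, Tmem120a, 2010008C14Rik, Gm16534 and Gm4332, with Pearson's r of 0.9966, 0.9959, 0.9948, 0.9916 and 0.9876. The libraries share their group and their totals, so these r describe likeness only. Cox18, which encodes a mitochondrial insertase for cytochrome oxidase, averaged 16.1 ± 1.96 TPM in fusion cells and 19.4 ± 1.94 TPM in empty vector cells (SD, n = 3 each), with overlapping groups and no call (adjusted p = 0.157). None of the 5 was called (0 of 5, with unadjusted p of 0.0314 to 0.124).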

How the data were processed

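Polyadenylated RNA of 6 Ba/F3 libraries, 3 per group, was prepared with a stranded Illumina mRNA kit from 1 µg of total RNA and sequenced in pairs, per the labels' protocols. The authors deposited TPM per Ensembl gene ID, and the columns share one total to within rounding. The tools fastp, HISAT2 and StringTie and the build GRCm39 are listed per the submitters' processing notes. Tool versions, gene annotation and strand setting were not given in the sources used here. Read numbers cannot be had from TPM, so no counting intervals were computed. Of the table's columns, 0 belonged to other samples.

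Symbols, and GC content and length of the longest transcript, came from GENCODE M21 (build GRCm38), matched by gene ID. A symbol was found for 52081 IDs (91.4%). Promoter windows are RefSeq's on GRCm38.p6, and no coordinates were converted. Shared 31-base words were counted against all M21 transcripts. The 12862 genes averaging 1 TPM or more were compared as log2(TPM + 1) with limma 3.58.1 in R 4.3.3 (lmFit, eBayes with trend, group as the only term, Benjamini-Hochberg adjustment over all tested genes). Differences on this scale understate changes of low genes. The correction removed from each library a spline trend (4 degrees of freedom each for GC content and length) of its deviations from the gene means, and left out 321 tested genes without these values. Exact permutation tests used scipy 1.17.1. The pipeline was tested on simulated data without a GC or length trend, so that test did not cover the GC shift of the fusion libraries.

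The 10 genes, the 5 lists, the motifs and the alternatives were chosen with earlier results of these data known. Named are the 10 genes, up to 6 called genes of smallest adjusted p per list, 16 genes fixed by name (some are not reported here), and the 5 genes most like the mean of the 10. Pycr3 was matched under its older name Pycrl. The 20 alternatives were a pseudocount of 0.1 or 5, all genes above 0 or those averaging 5 TPM, scaling without mitochondrially encoded genes, by median ratios or by quantiles, untrended eBayes, arrayWeights, the correction with and without TPR-FGFR1 replicate 3, the replicate number as a block with and without the correction, protein-coding genes alone, and leaving out each library.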

Additional observations from a re-analysis of the deposited data

How the results depend on the processing

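The count of enzyme genes called lower (5) was within 1.5 times of itself in all settings but the replicate block (3) and single-library omissions (2 to 6), and the count called higher (0) moved with arrayWeights (2) and omissions (0 to 1). Over the 5 lists, 10 genes were called higher and 11 lower in all libraries. These counts were 4 and 5 with no filter, 24 and 27 with arrayWeights, 2 and 7 with the replicate block, and 17 and 20 with the GC and length correction leaving out TPR-FGFR1 library 3, with 1 to 21 higher and 2 to 23 lower over the omissions. Over all tested genes, 1309 were called higher and 1291 lower. Here the counts were 620 and 526 with no filter, 4096 and 3506 with arrayWeights, 343 and 421 with the replicate block, 2052 higher with the correction, and 2510 and 2391 with the correction leaving out that library. Omitting 1 library gave 111 to 3387 higher and 109 to 3009 lower, the highest counts without TPR-FGFR1 replicate 3. Testing all genes above 0 raises the number adjusted for, but the cause of the change was not tested for that or any other setting.

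Direction turned for Cebpb, which was called lower (0.20 with the correction), and for these named genes that were not called. Dld was at −0.14 (log2) with the correction, against 0.03 before it. Shmt1 was at −0.01 (log2) with the correction leaving out TPR-FGFR1 library 3. With the correction, without and with the block, Mthfd1 was at 0.01, Atf4 at 0.03 and Tmem120a at 0.02, and leaving out that library Atf4 was at 0.11 and Tmem120a at 0.12. The compartment ratios stayed lower with a pseudocount of 1, the correction, the block and each omission, the settings run for them, with log2 differences over omissions of −1.76 to −1.31 for Shmt2/Shmt1, −0.58 to −0.41 for Mthfd2/Mthfd1 and −0.79 to −0.62 for Mthfd1l/Mthfd1. Same-numbered libraries did not deviate together (correlations of deviations −0.193, −0.075 and −0.153 for numbers 1, 2 and 3), so the block pairs nothing known. Under it Phgdh (adjusted p = 0.0613) and Aldh18a1 (0.0675) missed the threshold. The unknown depth limits all values near 1 TPM, such as those of Psph.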
